A study of Homo sapiens with 3 samples.

Results

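Genes of the AP-1 transcription factor family were examined for nearby binding of RUNX2 and of its partner protein CBFB in SAOS2 cells. The 10 members were FOS, FOSB, FOSL1 and FOSL2 of the FOS family, JUN, JUNB and JUND of the JUN family, and the related ATF3, BATF and BATF3, out of 20163 protein-coding genes. A peak was assigned to a member when its edge lay within 25 kb of the gene body, which took 16 of 9941 RUNX2 peaks and 32 of 27246 CBFB peaks. Peaks were assigned by position alone, and the genes themselves were chosen with earlier results of these data known.

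SAOS2 is a human osteosarcoma cell line that lacks p53, and it was grown at low passage without treatment. There were 3 samples with a single library each, namely chromatin immunoprecipitation sequencing (ChIP-seq) with a custom-made RUNX2 antibody, ChIP-seq with a commercial CBFB antibody from Bethyl, and input DNA, which was not analysed here. All 3 came from the same line under the same growth condition, so no group differed in genotype or treatment. With no replicate of either antibody, no spread between libraries could be measured and no p-value was computed.

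RUNX2 binds DNA and drives the osteoblast programme, while CBFB does not bind DNA itself and strengthens the binding of RUNX proteins. AP-1 is a dimer of basic leucine zipper proteins, typically a FOS protein with a JUN protein, that binds a short palindromic site and switches on genes after growth factor or stress signals. Many AP-1 genes are immediate early genes that are transcribed within minutes of a stimulus. In bone, FOS and its relatives take part in the growth and maturation of osteoblasts and osteoclasts, and excess FOS gives rise to osteosarcoma in mice. RUNX2 and AP-1 proteins are also known to act together on some bone genes.

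Sequences around the RUNX core are shown first, because they place the letters that RUNX proteins read within the peaks at the AP-1 genes. The RUNX core is TGTGGT, or ACCACA when read on the opposite strand. The first lines are windows of 61 bases around the core in RUNX2 peaks that held a whole core within 100 bp of their midpoint, and capitals mark the core. All sequences in this set are GRCh37, plus strand, 5′ to 3′.
FOS, chr14:75741631-75741691: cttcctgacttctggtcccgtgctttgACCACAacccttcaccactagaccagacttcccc
FOSB, chr19:45955005-45955065: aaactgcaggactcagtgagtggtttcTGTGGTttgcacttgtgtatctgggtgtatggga
JUND, chr19:18401197-18401257: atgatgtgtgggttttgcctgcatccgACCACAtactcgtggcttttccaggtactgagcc
ATF3 upstream, chr1:212713692-212713752: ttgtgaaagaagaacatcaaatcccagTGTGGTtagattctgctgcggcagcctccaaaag

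Further windows come from the highest-scoring CBFB peak of JUN, JUNB and BATF3, which had no RUNX2 peak of that kind. FOSL1 and FOSL2 had none either, and their highest CBFB peaks held no core. Capitals mark the RUNX core, and the strand and build are as above.
JUN, chr1:59251018-59251078: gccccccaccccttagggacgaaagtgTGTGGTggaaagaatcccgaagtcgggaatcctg
JUNB, chr19:12889399-12889459: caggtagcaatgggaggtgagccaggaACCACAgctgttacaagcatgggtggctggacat
BATF3, chr1:212874182-212874242: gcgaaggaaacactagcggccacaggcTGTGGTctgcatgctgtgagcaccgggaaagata

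A second set shows sites that AP-1 proteins themselves can bind, TGAGTCA or its complement TGACTCA, inside peaks at AP-1 genes. These lines show that an AP-1 site lay near the middle of some peaks and directly at the start of FOSL1 and FOSL2, where only short windows are given. Capitals mark the AP-1 site, on the plus strand of GRCh37.
FOSB upstream, chr19:45959341-45959401: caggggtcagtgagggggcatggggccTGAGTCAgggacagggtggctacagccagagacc
FOSL2 intron, chr2:28632305-28632365: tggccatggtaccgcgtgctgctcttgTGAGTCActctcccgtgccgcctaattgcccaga
JUND downstream, chr19:18385793-18385853: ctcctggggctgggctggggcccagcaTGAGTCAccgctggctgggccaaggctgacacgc
FOSL1 start, chr11:65667843-65667871: ctgctgggttcTGACTCAcccgcgccgtg
FOSL2 start, chr2:28615718-28615746: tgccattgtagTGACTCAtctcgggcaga
BATF3 downstream, chr1:212840874-212840934: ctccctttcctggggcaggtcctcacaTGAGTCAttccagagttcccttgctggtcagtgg

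The peak lists differed in length. The RUNX2 list held 9941 peaks with a median width of 937 bp, and the CBFB list 27246 peaks with a median width of 1148 bp. The scores ran from 50 to 3100 in both. A score was read as −10 times log10 of the peak p-value, which grows with read depth, and no read counts were given, so the depth is unknown. Scores were therefore used only as ranks inside a list, where a rank of 50% means that 50% of the peaks of that list scored at or below the peak.

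Of the 10 AP-1 genes, 7 had at least 1 RUNX2 peak and 9 had at least 1 CBFB peak. Among all protein-coding genes, 36.0% had a RUNX2 peak and 62.2% had a CBFB peak within the same reach. The 3 genes without a RUNX2 peak were JUN, BATF and BATF3, and BATF was the member with neither. All 7 genes with a RUNX2 peak had 2 or more, against 13.8% of all protein-coding genes and 38.4% of those that had any RUNX2 peak. Of the 16 RUNX2 peaks, 5 were nearer to the start of another protein-coding gene. With peaks at or above the median score only, 6 RUNX2 peaks were left. They lay at 6 members, beside 21.5% of protein-coding genes. These counts over 10 genes describe these libraries.

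**Figure D1:**
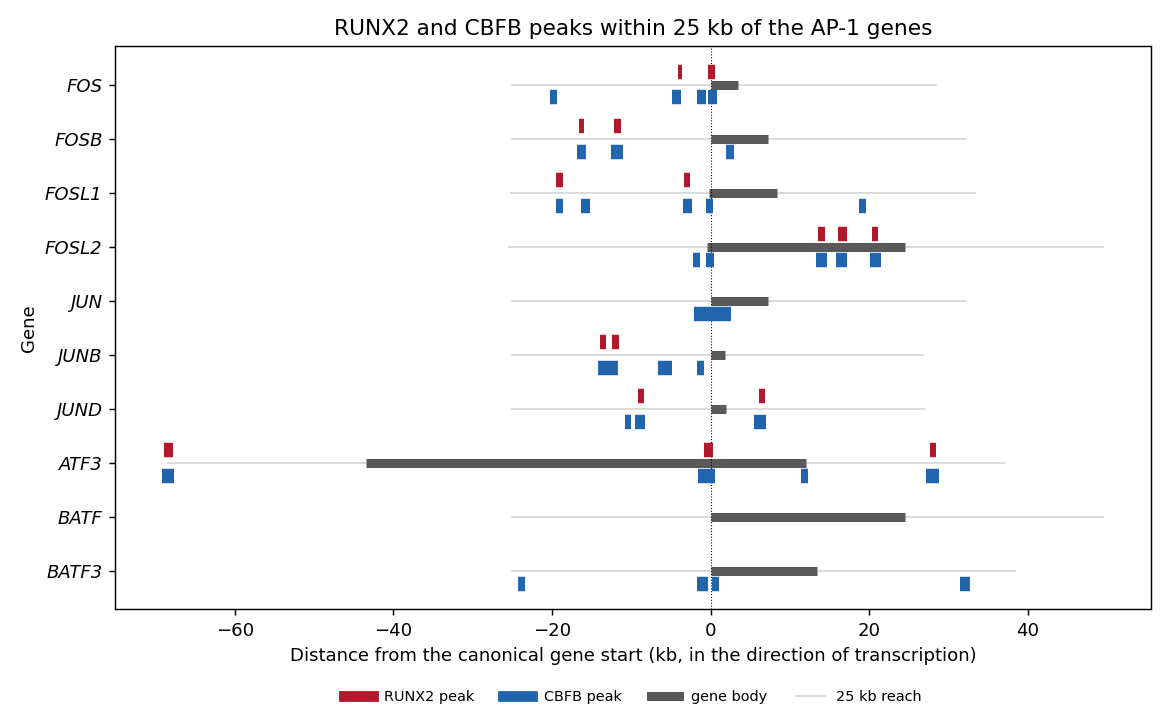
RUNX2 peaks (red, above each gene) and CBFB peaks (blue, below) drawn to scale by distance in kb from the canonical gene start, in the direction of transcription. Grey bars are gene bodies and thin lines the 25 kb reach. Every red bar has a blue bar at the same place, JUN and BATF3 have blue bars only, and BATF has none.

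All 4 FOS family genes had peaks of both proteins within 25 kb, 9 for RUNX2 and 17 for CBFB in all. FOS, the immediate early gene that gives the family its name, lies at chr14:75745529-75748933 on the plus strand. It had 2 RUNX2 peaks. The first, chr14:75741473-75741956, had a score of 64.65 and a rank of 28.4%, and its midpoint lay 3817 bp upstream of the start. The second, chr14:75745166-75746014, covered the FOS start with a score of 54.64 and a rank of 10.4%, and its midpoint fell in the UTR of the canonical transcript. Both RUNX2 peaks at FOS were thus in the lower part of their list.

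CBFB gave 4 peaks at FOS, with ranks between 14.0% and 60.1%. The highest, chr14:75745134-75746291, had a score of 152.77 and also covered the start. The CBFB peak that overlapped the upstream RUNX2 peak ranked at 37.2%. A CBFB peak between them, chr14:75743816-75745000, ranked at 47.1% and had no RUNX2 partner. The start peak of FOS held no RUNX core for either protein, whereas the upstream RUNX2 peak held the core printed above, 54 bp from its midpoint.

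FOSB, whose short splice form deltaFosB can drive bone formation, lies at chr19:45971253-45978437 on the plus strand and had the highest-ranked peaks of the family. Its RUNX2 peak at chr19:45959058-45959989 scored 204.13, a rank of 90.1% and place 986 from the top. The overlapping CBFB peak, chr19:45958733-45960141, scored 1108.66, a rank of 98.3% and place 468 from the top. The RUNX2 peak lay 11731 bp and the CBFB peak 11817 bp upstream of the start. FOSB was the protein-coding gene with the nearest canonical start, although both midpoints fell in the annotated body of ERCC1, outside its canonical transcript.

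The other RUNX2 peak at FOSB, chr19:45954652-45955299, was weak, with a score of 52.07 and a rank of 5.07%, and its CBFB partner ranked at 48.4%. The weak peak had a RUNX core 59 bp from its midpoint. The strong peak had its only core 425 bp from the midpoint and an AP-1 site 152 bp from it. No peak covered the canonical FOSB start. The nearest was a CBFB peak in the FOSB intron, at chr19:45973241-45974170 with a rank of 37.2% and no RUNX2 partner. That peak covered the start of 1 other annotated FOSB transcript.

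FOSL1, which encodes the FOS-related protein FRA1, lies at chr11:65659520-65668044 on the minus strand. Its start was covered by a CBFB peak, chr11:65667527-65668469, with a score of 105.46 and a rank of 43.4%, but by no RUNX2 peak. The nearest RUNX2 peak, chr11:65670442-65671197, lay 2960 bp upstream with a score of 68.69 and a rank of 33.7%. Its CBFB partner, chr11:65670155-65671366, was the highest of 5 CBFB peaks at FOSL1, with a score of 168.6 and a rank of 63.9%.

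A further RUNX2 peak, chr11:65686420-65687359, scored 94.47 and ranked at 58.3%, but its midpoint lay 8 bp from the start of DRAP1. Its CBFB partner ranked at 46.2%. Only the 25 kb reach ties this pair to FOSL1. Neither RUNX2 peak at FOSL1, nor either CBFB partner, held a RUNX core or an AP-1 site.

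FOSL2 encodes FRA2, a regulator of osteoblasts and of bone matrix genes, and lies at chr2:28615315-28640184 on the plus strand. Its 3 RUNX2 peaks all lay inside the gene, with midpoints 13930 to 20738 bp downstream of the start. The middle peak, chr2:28631735-28632905, was intronic with a score of 114.44 and a rank of 69.3%. On either side of it, chr2:28629225-28630086 in an intron scored 56.96 with a rank of 15.6%, and chr2:28636078-28636848 with its midpoint in the UTR scored 60.86 with a rank of 22.4%. Fewer RUNX2 peaks than at FOSL2 were found at 94.4% of protein-coding genes.

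The CBFB peaks at FOSL2 numbered 5. The partner of the middle RUNX2 peak, chr2:28631557-28632965, was the highest with a score of 254.29 and a rank of 77.5%. The other partners ranked at 51.6% and 63.0%. The start was covered by a CBFB peak, chr2:28615135-28616099, with a score of 147.12 and a rank of 58.6% and no RUNX2 peak, as at FOSL1. The middle RUNX2 peak held the AP-1 site printed above, 15 bp from its midpoint, and no RUNX core.

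The JUN family held 4 RUNX2 and 7 CBFB peaks, and 2 of its 3 genes had RUNX2 peaks. JUN, the partner of FOS in the classical AP-1 dimer, lies at chr1:59242517-59249720 on the minus strand. It had no RUNX2 peak and 1 CBFB peak, chr1:59247207-59251780, which covered the start with a score of 322.18 and a rank of 83.4%. This CBFB peak was 4574 bp wide, the widest of the 32 at AP-1 genes. It held 2 RUNX cores, and the nearer lay 1554 bp from the midpoint. The nearest RUNX2 peak lay 30.9 kb from the gene body, at chr1:59280579-59282210 in an intron of LINC01135, with a score of 126.93 and a rank of 74.4%. That peak overlapped a CBFB peak with a rank of 96.5%. JUN thus counts as without RUNX2 at a reach of 25 kb and as with RUNX2 at 50 kb.

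JUNB, which often restrains JUN and is needed for osteoblast growth, lies at chr19:12902300-12904129 on the plus strand. Both of its RUNX2 peaks lay upstream, with midpoints 13556 and 12012 bp from the start. The peak at chr19:12888370-12889118 scored 119.53 with a rank of 71.7%, and the peak at chr19:12889856-12890721 scored 53.22 with a rank of 7.58%. A single CBFB peak, chr19:12888047-12890617, overlapped both, with a score of 524.3 and a rank of 92.0%. The gene with the nearest canonical start was HOOK2 for all 3 peaks, which lay in its annotated body but outside its canonical transcript. The core printed for JUNB lay 96 bp from the midpoint of the CBFB peak, between the RUNX2 peaks and inside neither. Closer to JUNB were CBFB peaks alone, at chr19:12895659-12897386 with a rank of 69.9% and at chr19:12900617-12901442 with a rank of 19.7%, and no peak covered the start.

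JUND, the most broadly expressed JUN protein, lies at chr19:18390504-18392432 on the minus strand. Its upstream RUNX2 peak, chr19:18400888-18401658, scored 116.25 with a rank of 70.4%, and the CBFB partner, chr19:18400713-18401935, scored 238.05 with a rank of 75.6%. The downstream RUNX2 peak, chr19:18385527-18386303, scored 50.79 with a rank of 2.11%, the lowest of all RUNX2 peaks at AP-1 genes. The start of IQCN lay 653 bp from its midpoint. Its CBFB partner ranked at 54.6%. The remaining CBFB peak ranked at 5.09% without a RUNX2 partner, and the JUND start was covered by no peak.

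ATF3, BATF and BATF3 together held 3 RUNX2 and 8 CBFB peaks, and all 3 RUNX2 peaks were at ATF3. ATF3 encodes a stress-induced protein that pairs with JUN proteins and often represses transcription. The gene body, chr1:212738676-212794119 on the plus strand, is 55.4 kb long, the longest of the members, and the canonical start lies inside it at position 212782103. A RUNX2 peak, chr1:212781319-212782341, covered that start with a score of 78.28 and a rank of 44.7%, and the CBFB peak over it, chr1:212780547-212782607, scored 119.53 with a rank of 49.4%. ATF3 and FOS were the members with both proteins over the start.

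The strongest ATF3 pair lay far upstream. The RUNX2 peak at chr1:212713195-212714317 scored 182.36 with a rank of 87.1%, and the CBFB peak at chr1:212712957-212714443 scored 574.9 with a rank of 93.2%. The RUNX2 peak was 24359 bp from the gene body, close to the limit of the reach, and 68347 bp from the canonical start, and the nearest protein-coding start was still that of ATF3. This peak held 2 RUNX cores, the nearer 35 bp from the midpoint, and an AP-1 site. Downstream, the RUNX2 peak at chr1:212809734-212810495 scored 55.23 with a rank of 12.0%, and its CBFB partner, chr1:212809295-212810875, ranked at 77.7%. The nearest start there was that of GARIN4. A CBFB peak with its midpoint in the ATF3 UTR, chr1:212793452-212794378, ranked at 39.0% and had no RUNX2 partner.

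The 250 bases before the canonical ATF3 start, which lay under both peaks, held no RUNX core and no AP-1 site. Further upstream, both peaks shared a RUNX core, 333 bp from the RUNX2 midpoint and 80 bp from the CBFB midpoint. The 250 bases did hold TATAAA, marked in capitals, which 9.4% of 20163 upstream windows of the same length held on either strand. Among the members, the windows of FOS, FOSB and JUNB held TATAAA as well.
ATF3 upstream of the start, chr1:212781853-212782102: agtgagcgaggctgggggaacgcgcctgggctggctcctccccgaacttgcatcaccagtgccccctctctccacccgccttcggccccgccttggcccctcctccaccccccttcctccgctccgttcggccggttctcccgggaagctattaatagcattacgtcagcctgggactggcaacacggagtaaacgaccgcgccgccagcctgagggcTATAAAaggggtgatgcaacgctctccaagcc

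BATF3, a partner of JUN proteins known from dendritic cells, lies at chr1:212859759-212873182 on the minus strand, 65.6 kb from ATF3. It had 4 CBFB peaks with ranks from 3.29% to 64.6% and no RUNX2 peak. The highest, chr1:212873528-212874916, scored 171.6 and lay 1040 bp upstream of the start, with a RUNX core 11 bp from its midpoint. Of the 9 genes with CBFB peaks, BATF3 and JUN were those at which no CBFB peak overlapped a RUNX2 peak. The RUNX2 peak nearest to BATF3 was the one downstream of ATF3, 49.3 kb away.

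BATF, a leukocyte AP-1 protein, lies at chr14:75988798-76013336 on the plus strand, 240.0 kb from FOS, and had no peak of either protein. The nearest CBFB peak was 75 kb away, in an intron of JDP2 at chr14:75912865-75913754, with a rank of 47.3%. The nearest RUNX2 peak was the one over the FOS start. BATF was nonetheless the only member with a RUNX core in the 250 bases before its canonical start, a feature of 8.91% of all such windows. The core ended 27 bp before the start and is in capitals in the last 61 bases before it, on the plus strand of GRCh37.
BATF, chr14:75988751-75988811: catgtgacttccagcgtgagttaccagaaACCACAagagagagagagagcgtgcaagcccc

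Ranks of the peaks at AP-1 genes covered most of both lists. The 16 RUNX2 peaks ranked between 2.11% and 90.1% with a median of 31.1%, and 6 of them were in the upper part of the list, above 50%. The 32 CBFB peaks ranked between 3.29% and 98.3% with a median of 50.5%, and 16 were above 50%. At most genes a high peak stood among lower ones. The highest RUNX2 peak was above a rank of 50% at 6 of the 7 genes with a peak, with FOS as the exception, and the highest CBFB peak was above it at all 9. A highest rank rises with the number of peaks, so genes with like numbers were compared. The median was 70.4% over the 7 members, which had 2 to 3 RUNX2 peaks, and 73.1% over 2276 protein-coding genes with as many. For CBFB it was 76.5% over the 8 members with 3 to 5 peaks and 82.5% over 3502 such genes.

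**Figure D2:**
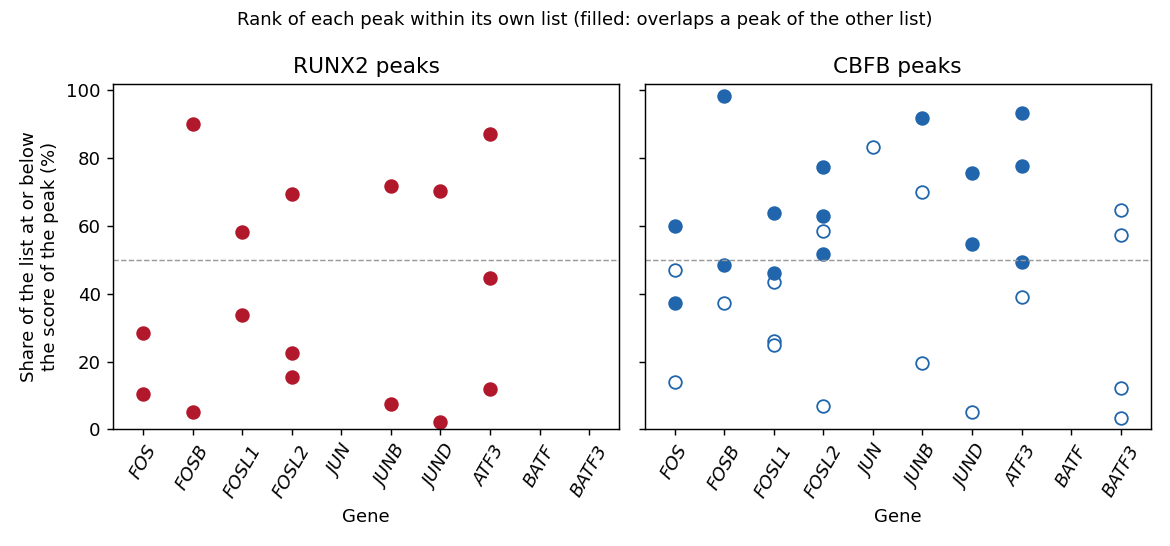
Rank of each peak at the AP-1 genes within its own list, as the percentage of that list at or below its score, for RUNX2 (left) and CBFB (right). Each point is a peak, filled where it overlaps a peak of the other protein, and the dashed line marks 50%. The highest points are the FOSB peaks at 90.1% and 98.3%, every RUNX2 point is filled, and 17 CBFB points are open.

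Every RUNX2 peak at an AP-1 gene, 16 of 16, shared 1 bp or more with a CBFB peak, and the exact Clopper-Pearson 95% interval of that share ran from 79.4 to 100%. In the whole RUNX2 list the share was 94.2%, which lies within that interval. A total of 13 of the 16 lay wholly inside a CBFB peak, and the distance between paired midpoints had a median of 59 bp, against 96 bp over all pairs. In the other direction, a RUNX2 peak was met by 15 of 32 CBFB peaks, or 46.9% (29.1 to 65.3), and the whole CBFB list had 33.8%, again within the interval. These intervals cover counting error only, and neighbouring peaks of a gene are not independent.

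The 15 CBFB peaks with a RUNX2 partner had a median rank of 63.0% and the 17 without had 37.2%. Over the whole CBFB list these medians were 80.0% and 35.9%. JUN stood at the top of the peaks without a partner, with 83.4%, followed by the JUNB peak at 69.9% and the upstream BATF3 peak at 64.6%.

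Within the 16 pairs, CBFB ranked above RUNX2 in 15, as it did in 84.8% of the 9365 pairs of the whole RUNX2 list. The exception was the pair over the DRAP1 start, with 58.3% for RUNX2 and 46.2% for CBFB. The median ranks were 31.1% for RUNX2 and 63.5% for CBFB, and over all pairs they were 52.3% and 80.5%. Spearman's rho of the paired scores was 0.452 over the 16 pairs, given as a description because the peaks share libraries and JUNB enters with 1 CBFB peak in 2 pairs, and it was 0.602 over all pairs. Pairs with the lowest RUNX2 ranks had middling to high CBFB ranks, such as 2.11% with 54.6% at JUND and 7.58% with 92.0% at JUNB. The lists differ in length, so a given percentage is not the same number of peaks in each.

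**Figure D3:**
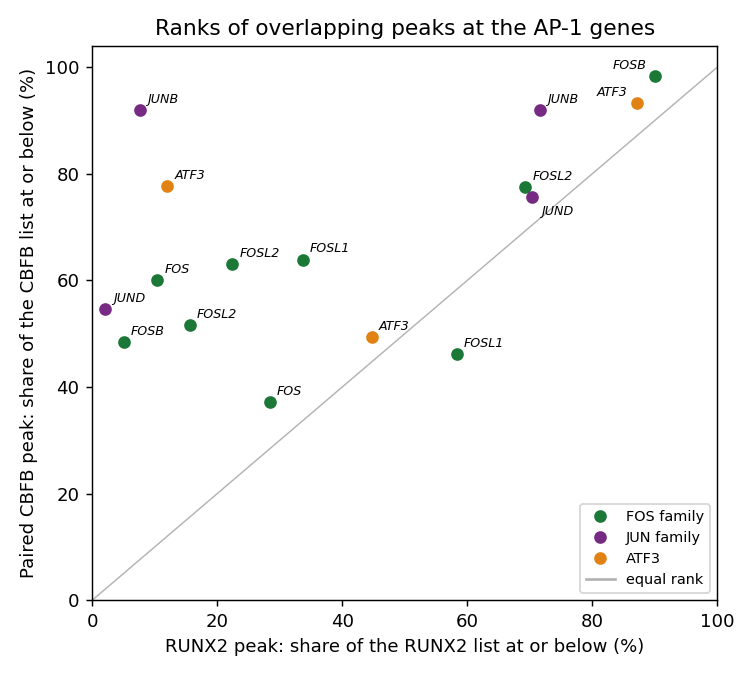
Rank of each of the 16 RUNX2 peaks at AP-1 genes (horizontal, percentage of the RUNX2 list at or below its score) against the rank of its overlapping CBFB peak (vertical, percentage of the CBFB list). Each point is a pair, coloured by gene family, and the line marks equal ranks. All points but the FOSL1 pair at 58.3% and 46.2% lie above the line.

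CBFB peaks were found over the canonical start of 5 of the 10 AP-1 genes, FOS, FOSL1, FOSL2, JUN and ATF3, compared with 20.6% of all protein-coding genes. RUNX2 peaks covered the start of 2, FOS and ATF3, compared with 7.39%. Of the 5 genes with CBFB over the start, 2 also had RUNX2 there, and among all 4151 such genes 32.7% did. Within 5 kb of the canonical start of the member lay 4 of the 16 RUNX2 peaks (25%) and 13 of the 32 CBFB peaks (40.6%). For scale, 22.2% of all RUNX2 peaks and 22.8% of all CBFB peaks had their midpoint within 5 kb of some protein-coding start, a measure that is not tied to a given gene.

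Most midpoints fell outside the canonical transcripts of any gene, at 12 of 16 RUNX2 peaks and 19 of 32 CBFB peaks. By the whole annotated gene bodies, 5 RUNX2 and 11 CBFB midpoints fell in the body of the member, 5 and 9 in that of other genes only, and 6 and 12 in none. Upstream of the start lay 10 RUNX2 and 20 CBFB peaks, and 6 and 12 lay downstream. The member had the nearest canonical protein-coding start for 11 of 16 RUNX2 peaks and 25 of 32 CBFB peaks. With the remaining peaks left out, 6 members kept a RUNX2 peak and 9 kept a CBFB peak. JUNB lost both of its RUNX2 peaks, which were nearer to HOOK2. No whole-list shares are given beside these placements, so the counts do not show a trait particular to the AP-1 genes.

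The count of genes depended on the reach, more for RUNX2 than for CBFB. Within 5 kb and within 10 kb of the gene body, 5 members had a RUNX2 peak, beside 25.2% and 28.4% of protein-coding genes. At 50 kb and at 100 kb, 9 members had one, beside 46.0% and 59.2%. CBFB peaks were found at 9 members from 5 kb to 50 kb and at all 10 at 100 kb, beside 48.4% of protein-coding genes at 5 kb and 81.4% at 100 kb. Gene length also enters such counts. The members had a median body of 7.86 kb, and among protein-coding genes with a body no longer than that of ATF3, 31.9% had a RUNX2 peak and 57.8% a CBFB peak. Measured 25 kb to either side of the start alone, 7 members had RUNX2 and 9 had CBFB, beside 25.2% and 50.7%.

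**Figure D4:**
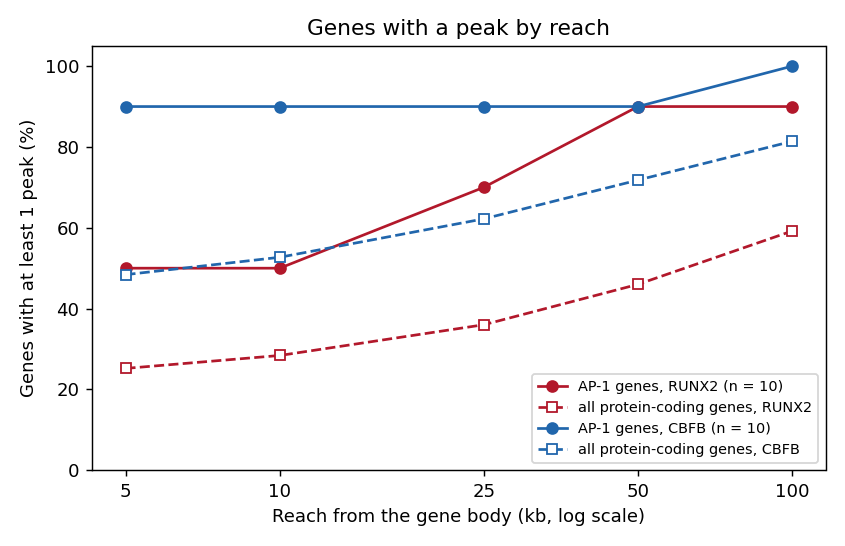
Percentage of genes with at least 1 peak (vertical) against the reach from the gene body in kb (horizontal, log scale) for the 10 AP-1 genes (filled, solid lines) and all protein-coding genes (open, dashed lines). At 25 kb the AP-1 genes stand at 7 of 10 for RUNX2 and 9 of 10 for CBFB, beside 36.0% and 62.2%.

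Related gene lists were counted in the same way, beside the shares of 36.0% for RUNX2, 62.2% for CBFB and 20.6% for a start under CBFB among all protein-coding genes. Of 12 other AP-1 zipper genes and partners, 4 had a RUNX2 peak (ATF7, MAFF, MAFK and NRL) and 9 had a CBFB peak, with 8 RUNX2 and 25 CBFB peaks in all. ATF2, BATF2 and MAF had neither. Of 13 kinases and regulators upstream of AP-1, 7 had a RUNX2 peak, among them MAPK9, MAPK10 and the ETS factors ELK1, ELK3 and ELK4, and 10 had a CBFB peak. MAPK8, MAPK3 and MAP2K4 had neither. These regulators are longer genes, with a median body of 59.0 kb. CBFB covered the start of 5 of the 13 regulators and of 3 of the 12 zipper genes. No test was made of the difference between the lists.

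RUNX cores were counted next, within 100 bp of the peak midpoint on both strands. Of the RUNX2 peaks at AP-1 genes, 5 of 16 held one, a share of 31.2% (11 to 58.7), beside 43.2% of all RUNX2 peaks. Of the CBFB peaks, 9 of 32 did, a share of 28.1% (13.7 to 46.7), beside 41.6% of the whole list. Each share was below that of its list, and its interval included the share of the list. The 5 RUNX2 peaks were 1 each at FOS, FOSB and JUND and 2 at ATF3. Anywhere in the peak, 10 of 16 RUNX2 peaks and 20 of 32 CBFB peaks held a core, beside 78.1% and 80.9% of the lists. Both shares were 62.5%. The interval for RUNX2, 35.4 to 84.8, included the share of its list, and that for CBFB, 43.7 to 78.9, ended below the 80.9% of its list. This comparison takes no account of peak width. The intervals again cover counting error only, and neighbouring peaks of a gene are not independent. Whether cores are fewer at these genes was not tested. The median width was 813 bp for these RUNX2 peaks and 1192 bp for these CBFB peaks, beside 937 bp and 1148 bp in the lists.

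RUNX2 peaks at FOSL1 held no core at all, nor did the start peak of FOS, the middle peak of FOSL2, the stronger upstream peak of JUNB or the downstream peak of JUND. A RUNX core was present within 100 bp in 7 of the 15 CBFB peaks with a RUNX2 partner and in 2 of the 17 without. Over the whole CBFB list the shares were 41.8% with a partner and 41.6% without. In flanking windows of equal size, placed 2 kb away and free of peaks, 13.6% held a core around all RUNX2 peaks and 13.8% around all CBFB peaks. Around the peaks at AP-1 genes, such windows held a core in 6 of 27 for RUNX2 and 8 of 54 for CBFB. A match of 6 letters is a description, and its absence says only that these letters are not in the window.

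AP-1 sites were rarer. Within 100 bp of the midpoint, 2 of 16 RUNX2 peaks held one, beside 9.72% of the list. They were the middle FOSL2 peak and the downstream JUND peak. Of the CBFB peaks, 2 of 32 did, at FOSB and FOSL2, a share of 6.25% (0.766 to 20.8) beside 8.52%. Anywhere in the peak, 5 of 16 RUNX2 and 11 of 32 CBFB peaks held an AP-1 site, beside 27.8% and 30.2%. These shares lay close to those of the whole lists. In the flanking windows at AP-1 genes, an AP-1 site was held by 0 of 27 for RUNX2 and 3 of 54 for CBFB. Around all peaks of the lists, 2.89% and 3.09% of such windows held one. The related 8-base site TGACGTCA was found in none of these RUNX2 or CBFB peaks. Both a RUNX core and an AP-1 site were present in 3 of 16 RUNX2 and 8 of 32 CBFB peaks, beside 23.3% and 25.9% of the lists. The shortest distance between them was 48 bp, in the CBFB peak downstream of BATF3.

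**Figure D5:**
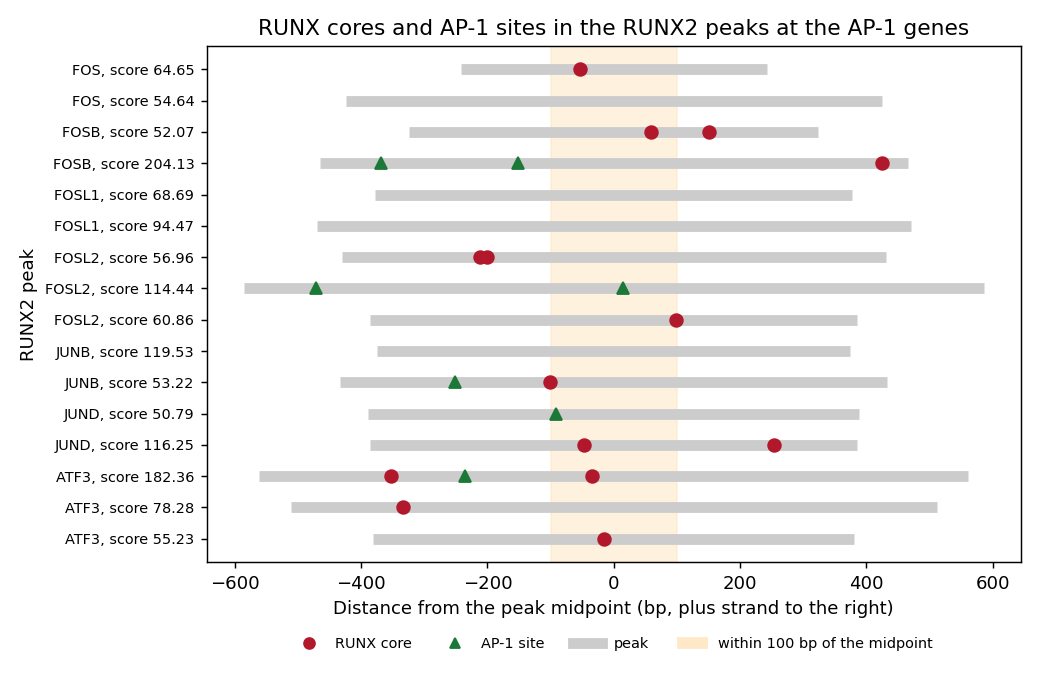
Positions of RUNX cores (red circles) and AP-1 sites (green triangles) in the 16 RUNX2 peaks at AP-1 genes, in bp from the peak midpoint along the plus strand. Grey bars are the peaks to scale, labelled by gene and score, and the shaded band is 100 bp to either side of the midpoint. Whole cores fall in the band in 5 peaks, and the AP-1 site nearest to a midpoint is that of FOSL2, 15 bp away.

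AP-1 sites also lay directly at the starts of 2 AP-1 genes. The whole site lay within 10 bp of the canonical start of FOSL1 and FOSL2, compared with 0.268% of all protein-coding genes. Both starts were covered by a CBFB peak without a RUNX2 peak. This feature was noticed after the sequences had been read, so the comparison is a description.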

How the data were processed

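ChIP-seq was done with 1 library per antibody in SAOS2 cells. The submitters' processing notes name CASAVA 1.8.2, MACS 1.4.1 and hg19. The aligner, the limit for calling and whether the input served as control are not given in the sources used here. The authors deposited the called peaks of each library with a score, read here as −10 times log10 of the p-value from the peak names and the range of values. Contigs were named as in hg19, and every peak on chromosomes 1 to 22, X and Y ended within its GRCh37 length.

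Genes were those of GENCODE release 44 lifted to GRCh37, with 64449 genes. The canonical start and UTRs were those of the transcript tagged canonical. Peaks were assigned within 25 kb, and overlap required 1 bp. Motifs were searched on both strands of the GRCh37 genome, from which the printed sequences were read. A further sequence window is not reported here. Of each AP-1 gene, all RUNX2 peaks, the highest CBFB peak and any CBFB peak over the start were named, and further CBFB peaks were named after their values were seen. Shares carry exact Clopper-Pearson 95% intervals. The members and lists were chosen with earlier results of these data known. Alternatives covered the reach, gene body, score limit, overlap, motif form, background and single members. The scripts were tested on planted data. Python 3.11.15, numpy 2.4.6, pandas 2.3.3, scipy 1.17.1 and matplotlib 3.10.9 were used.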

Additional observations from a re-analysis of the deposited data

How the results depend on the processing

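No paired analysis was possible because there was a single library for each protein. The alternatives gave 68 values, of which 49 lay within the counting interval or within 1.5 times the count. Some of the 49 could not have moved, so this tally is no measure of stability. Another background leaves the count of members as it was, and leaving out peaks keeps an overlap of 16 of 16 at 100%. The genes with a RUNX2 or a CBFB peak were among the 49 at every reach, although the number of RUNX2 genes ranged from 5 to 9. Of the 68, 9 values came from an alternative chosen after seeing the data, which kept only peaks whose nearest start was that of the member, and they moved no result beyond these limits.

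The numbers of peaks followed the reach and the score limit. RUNX2 peaks numbered 8 at 5 kb, 9 at 10 kb and 30 at 100 kb, and CBFB peaks 19, 20 and 77. With peaks at or above the median score of their list there were 6 RUNX2 and 16 CBFB peaks, and with only the top CBFB peaks, as many as RUNX2 peaks, 10 CBFB peaks. The share of RUNX2 peaks that overlapped CBFB was 68.8% when 50% of both peaks had to overlap, 68.8% when midpoints had to lie within 200 bp and 50% with the top CBFB peaks alone. The share of those top CBFB peaks that overlapped RUNX2 was 70.0%. No whole-list share under these stricter rules is given here. These overlap values therefore do not show whether the change is particular to the AP-1 genes. The RUNX core was present in 62.5% of RUNX2 peaks and 62.5% of CBFB peaks anywhere in the peak. In CBFB peaks it was present in 9.38% within 50 bp (3 of 32), beside 22.9% of the whole list. As the longer TGTGGTT it was present in 12.5% (4 of 32), beside 23.2% of the list. For both of these shares the counting interval included the share of the list. The AP-1 site was present in 0.0% of CBFB peaks within 50 bp (0 of 32, which allows up to 10.9%, beside 4.32% of the list) and in 34.4% anywhere in the peak.

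The single libraries and the unknown depth limit these values. A gene without a peak had none above the calling limit, which does not show that the protein was absent.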
